A study of Caenorhabditis elegans with 6 samples.

Results

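The nlp genes of Caenorhabditis elegans encode neuropeptide-like proteins, precursors that are cut into short secreted peptides. The 33 genes described here are those whose deposited gene symbol begins with nlp-, apart from nlp-24 to nlp-34, which were left out by the same rule. Each symbol had 1 probe set, so the members are 33 of the 29317 probe sets on the array, and no signal was used to choose them. All 33 entered every test, since no filter on low signal was applied. RefSeq now names 3 of them differently, nlp-37 as pdf-2, nlp-38 as mihp-1 and nlp-42 as mihp-2. A further 37 genes carry an nlp name in RefSeq but not in the deposited table and are described separately.

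The samples were whole animals of the wild-type strain N2, hatched together after bleaching. From 16 to 18 h after hatching, as first-stage larvae, they were held in S medium at 20 °C for 48 h with 100 µM tartrazine, with 100 µM Ponceau Red or with water, and the labels give every sample as a young adult, 3 days after hatching. Tartrazine and Ponceau Red are synthetic azo dyes used to colour food. Each group had 2 arrays, 6 in all, which the deposited table numbers 1 and 2 for tartrazine, 2 and 3 for Ponceau Red and 1 and 2 for water, and pairs of values below follow that order. Values are log2 signals per probe set from robust multi-array averaging (RMA), so that a difference of 1 is a 2-fold difference. Signals of different probe sets are not on a common scale of RNA amount, and only differences between arrays are compared.

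Neuropeptide precursors enter dense core vesicles, where the proprotein convertase EGL-3 and the carboxypeptidase EGL-21 cut out the peptides and other enzymes amidate their C termini. The peptides act mainly through G protein-coupled receptors, often on cells far from their release, and tune locomotion, feeding, egg laying, sleep-like states and responses to odours. Neuropeptide genes of C. elegans are grouped as insulin-like ins, FMRFamide-like flp and nlp genes, and the last is a mixed group that holds those of neither other kind. Most nlp genes are expressed in neurons, and some also in gut or epidermis.

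The 6 arrays did not fall into the 3 labelled groups of 2. Over the 27568 probe sets with a gene name, the tartrazine arrays correlated at 0.982 and the water arrays at 0.987, but the Ponceau Red arrays at 0.844, with 6605 probe sets more than 2-fold apart. The correlation of Ponceau Red array 2 with tartrazine array 2 was 0.991. The yolk and germ line markers split in the same way, but not every marker list did. All 6 yolk protein genes, which are expressed in adults, were above both water arrays on both tartrazine arrays and on Ponceau Red array 2. Their summed linear signal was 5405 and 8184 in tartrazine, 10122 and 24.1 in Ponceau Red, and 26.7 and 25.04 in water. All 10 germ line markers were likewise high on those 3 arrays, with sums of 2016 and 2102 in tartrazine, 2135 and 46.6 in Ponceau Red, and 84.5 and 53.8 in water. The 5 sperm markers did not split so. Their sums were 35.9 and 31.8 in tartrazine, 22.2 and 20.2 in Ponceau Red, and 23.1 and 22.8 in water. The yolk gene vit-2 read 9.64 and 9.99 log2 in tartrazine, 10.76 and 1.83 in Ponceau Red, and 1.75 and 2.22 in water, so the low readings of both water arrays and of Ponceau Red array 3 go against the labelled adult stage. No marker was listed at 0. The part of these markers in the results below was not tested. In whole animals, fewer cells of a type and less RNA per cell cannot be told apart.

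The members sit on all 6 chromosomes. In RefSeq's assembly WBcel235, the build that the deposited annotation names, nlp-22 (chromosome X, 2341359 to 2342089), nlp-23 (2342391 to 2342959) and nlp-2 (2343947 to 2344766) follow each other as neighbouring genes. The peptides of these 3 genes belong to the RPamide family. The genes nlp-9 (chromosome V, 4219642 to 4222233) and nlp-13 (4236418 to 4238056) are also neighbours among coding genes. No member was marked for cross-hybridisation in the deposited annotation.

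Most nlp genes had lower signals on the tartrazine arrays than on the water arrays. On 26 of the 33 no tartrazine array reached either water array, on 5 both tartrazine arrays were above both water arrays, and for nlp-22 and nlp-40 the groups overlapped. Over all probe sets tested these shares were 34.3% and 33.7%. The median difference of the members was -1.44 log2, beside 0.02 for all probe sets. Of the 33, nlp-4 and nlp-19 passed the test across all probe sets, and both fell.

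**Figure D1:**
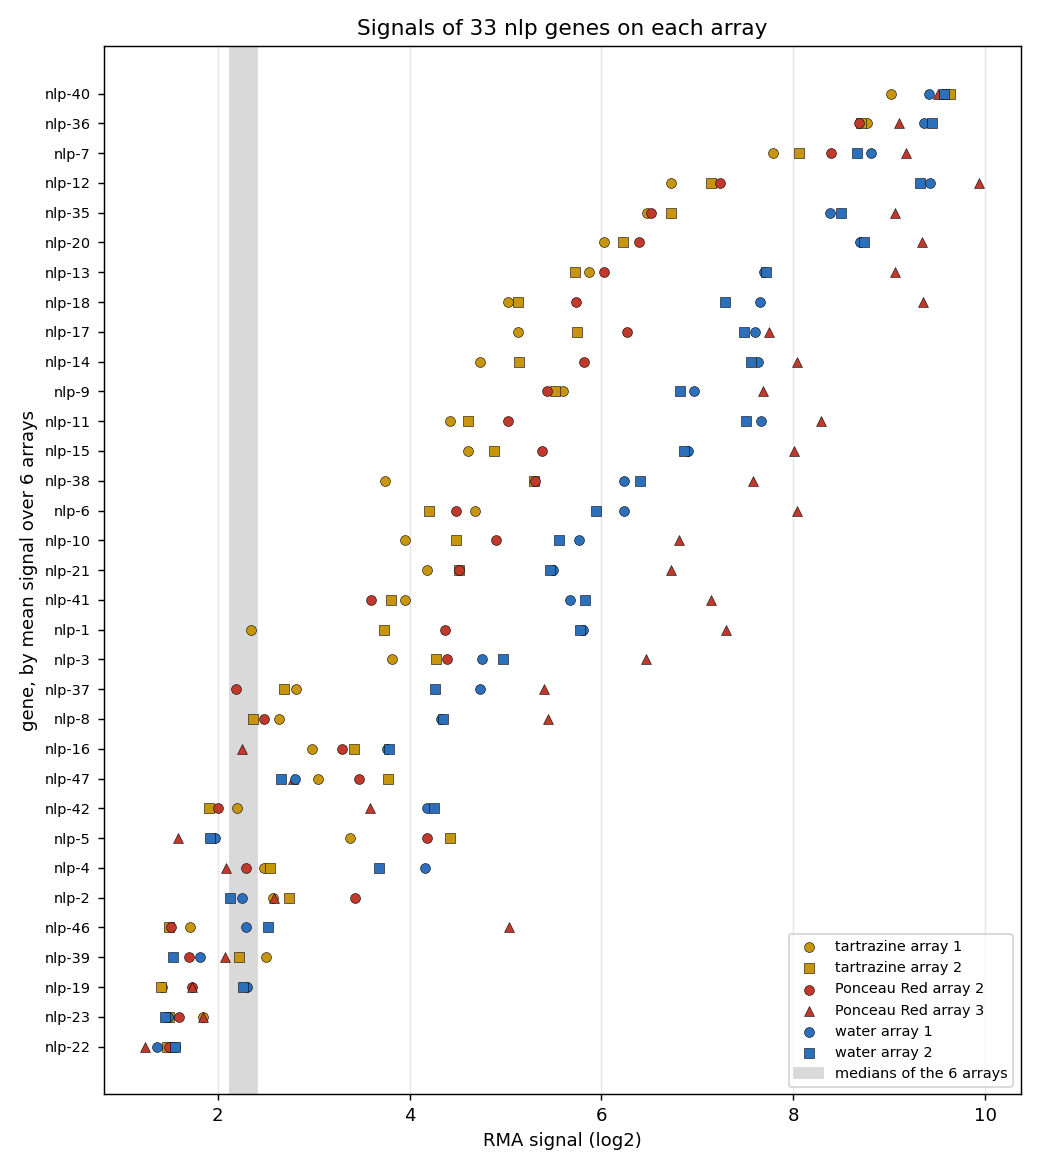
RMA signal (log2, horizontal axis) of each of the 33 nlp genes on each of the 6 arrays, 1 gene per row, with the range of the 6 array medians as a grey band. In most rows the tartrazine arrays and Ponceau Red array 2 lie left of the water arrays, and Ponceau Red array 3 is the rightmost point in 22 of the 33 rows.

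The comparison with water addresses which nlp transcripts differ between animals held with tartrazine and with water, and since the yolk and germ line markers separate the same arrays, colorant and stage cannot be told apart in it. The gene nlp-4 read 2.48 and 2.54 log2 in tartrazine, 2.30 and 2.09 in Ponceau Red, and 4.16 and 3.68 in water. Both water arrays were above all 4 colorant arrays, with no overlap. It fell by 1.41 ± 0.22 log2 in tartrazine (2.66-fold; limma adjusted p = 0.0434), with an adjusted p between 0.00314 and 0.252 over the alternatives tried. Here and below, ± is limma's standard error, from 1 spread shared by all 6 arrays, both Ponceau Red arrays included. The gene nlp-19 (chromosome X, 10958727 to 10959253) read 1.42 and 1.41 log2 in tartrazine, 1.73 and 1.73 in Ponceau Red, and 2.31 and 2.27 in water. Its signals were below the median of the array on all 6 arrays, and its tartrazine, Ponceau Red and water pairs did not overlap. It fell by 0.87 ± 0.14 log2 in tartrazine (1.83-fold; limma adjusted p = 0.0486), with an adjusted p between 0.00777 and 0.311 over the alternatives.

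With all 6 arrays sharing 1 spread, 2 of 33 members passed for tartrazine against water, while 4.38% of all probe sets did, so their share was near that of the array as a whole. Both fell, as 3.86% of all probe sets did. At an unadjusted p under 0.05 there were 12 members, beside 28.6% of all probe sets, and nlp-39 was the 1 of these that was higher. The spread in that fit includes the distance between the Ponceau Red arrays, and the median 95% interval of a member's difference reached 1.94 log2 to either side. In the fit on the 4 tartrazine and water arrays alone, 27 members passed in limma, beside 35.1% of all probe sets. Of these, 25 fell and 2 rose, nlp-5 and nlp-39, where 19% of all probe sets fell and 16.1% rose. In fits on 5 arrays that kept both Ponceau Red arrays and left out 1 tartrazine or water array, 0 members and 0% of all probe sets passed, and 2 or 3 members had an unadjusted p under 0.05, beside 12.4% to 16.6% of all probe sets.

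The comparison of Ponceau Red with water gave no common direction. The members' median difference was -0.16 log2, beside 0.06 for all probe sets, with 18 members below 0 and 15 above. With each array centred on its median these counts were 15 and 18, and after quantile normalization 24 and 9. For nlp-4 the Ponceau Red signals were 2.30 and 2.09 log2, against 4.16 and 3.68 in water. It fell by 1.73 ± 0.22 log2 (3.31-fold; limma adjusted p = 0.0319), with an adjusted p between 0.00596 and 0.190 over the alternatives. It was the 1 member of 33 that passed, where 2.89% of all probe sets did and 2.75% fell, and 3 members had an unadjusted p under 0.05, beside 14.9%. The 2 colorant comparisons share the water arrays, so the fall of nlp-4 in both is not 2 independent observations.

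Both Ponceau Red arrays were below both water arrays for nlp-4, nlp-16, nlp-19, nlp-36 and nlp-42, beside 23.1% of all probe sets, and above them for nlp-2 and nlp-23, beside 24.8%. The gene nlp-42 read 2.20 and 1.91 log2 in tartrazine, 2.01 and 3.59 in Ponceau Red, and 4.18 and 4.25 in water. Water was highest, Ponceau Red array 3 next, and Ponceau Red array 2 stood with tartrazine. Its difference was -1.42 ± 0.54 log2 in Ponceau Red (limma adjusted p = 0.334) and -2.16 ± 0.54 log2 in tartrazine (adjusted p = 0.0999). The gene nlp-16 read 2.98 and 3.42 log2 in tartrazine, 3.29 and 2.25 in Ponceau Red, and 3.76 and 3.79 in water, lowest on Ponceau Red array 3, and its difference in Ponceau Red was -1.0 ± 0.39 log2.

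The call for Ponceau Red turned on which of its arrays was kept. Without array 3, 21 members passed in limma, 19 of which fell and 2 rose, beside 26.1% of all probe sets, of which 13.1% fell and 13.1% rose. Without array 2, 11 passed, 9 of which rose and 2 fell (nlp-4 and nlp-16), beside 11.4% of all probe sets, of which 4.99% rose and 6.38% fell. In both fits the remaining Ponceau Red array is assumed to vary like the other groups. The members' median difference from water was -1.28 log2 for array 2 and 0.62 for array 3.

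Between the colorants, at the same dose and time, 0 of 33 members and 0% of all probe sets passed in limma. At an unadjusted p under 0.05 there were 4 members, nlp-1, nlp-7, nlp-14 and nlp-17, beside 4.51%. The tartrazine arrays were below both Ponceau Red arrays for 14 members (18.7% of all probe sets) and above them for nlp-4 and nlp-39 (16.8%). The members' median difference was -1.27 log2, beside 0.00 for all. For nlp-17, which read 5.13 and 5.74 log2 in tartrazine, 6.26 and 7.75 in Ponceau Red, and 7.60 and 7.49 in water, the tartrazine minus Ponceau Red difference was -1.57 ± 0.54 log2, with a 95% interval from -2.98 to -0.17. Ponceau Red array 2 was the nearer to tartrazine, and array 3 stood just above water. For nlp-7 it was -0.86 ± 0.31 log2, from -1.66 to -0.05, and for nlp-1 -2.79 ± 1.06 log2, from -5.55 to -0.04. Without Ponceau Red array 2, 24 members passed, 22 of them lower and 2 higher in tartrazine, beside 27.7% of all probe sets, of which 14.7% were lower and 13% higher. Without array 3, 0 passed, beside 0%, and 7 had an unadjusted p under 0.05, beside 3.96%.

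The test of any difference among the 3 groups, limma's moderated F, was passed by 0 of 33 members and by 2.52% of all probe sets. The lowest adjusted p was 0.0526, for nlp-4. At an unadjusted p under 0.05 there were 6 members, beside 19.1%.

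**Figure D2:**
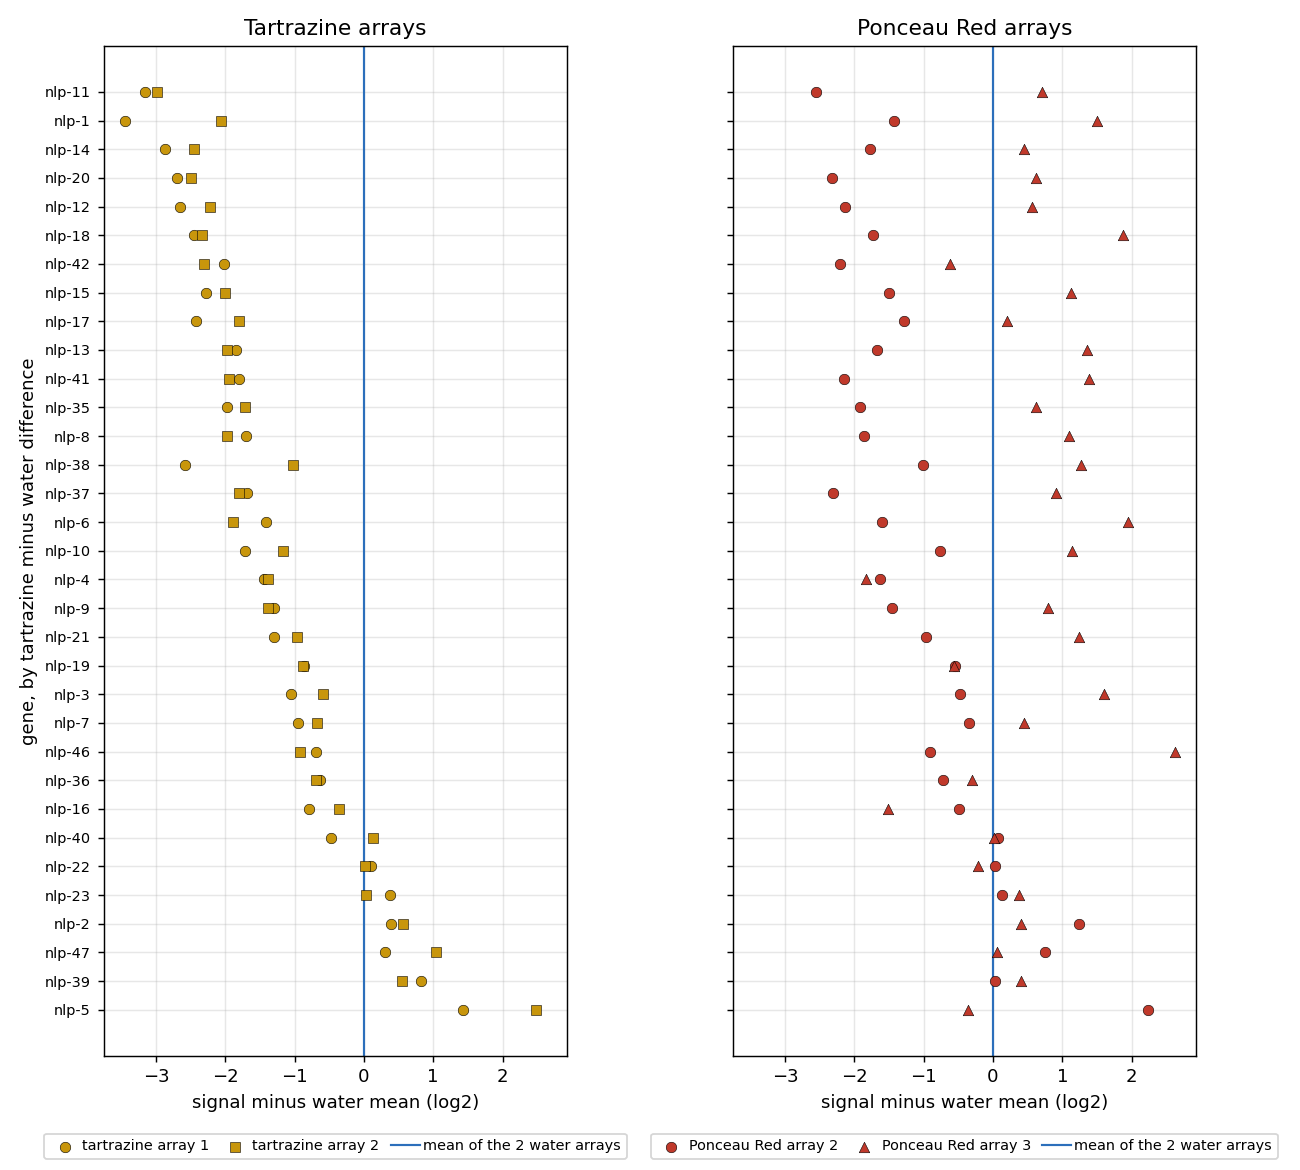
Signal minus the mean of the 2 water arrays (log2, horizontal axis) for each nlp gene, in rows ordered by the tartrazine difference, with the 2 tartrazine arrays on the left and the 2 Ponceau Red arrays on the right. The tartrazine arrays lie close together in most rows, while the Ponceau Red arrays lie on opposite sides of the water line in 21 rows with array 3 above it.

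Of the 11 members listed for a known role in behaviour, 0 passed for tartrazine in limma. At an unadjusted p under 0.05 there were 4, beside 28.6% of all probe sets. On 9 of the 11 both tartrazine arrays were below both water arrays, beside 34.3%. The gene nlp-12 encodes cholecystokinin-like peptides that the stretch-sensitive neuron DVA releases to adjust locomotion through the receptor CKR-2. It read 6.72 and 7.14 log2 in tartrazine, 7.23 and 9.93 in Ponceau Red, and 9.42 and 9.32 in water. The tartrazine arrays and Ponceau Red array 2 formed a low set, and Ponceau Red array 3 was the highest. The tartrazine minus water difference was -2.44 ± 0.90 log2, with a 95% interval from -4.77 to -0.10 (limma adjusted p = 0.164). The gene nlp-37, or pdf-2, encodes pigment-dispersing factor peptides, which act through PDFR-1 and favour roaming. Its signals were 2.82 and 2.69 log2 in tartrazine, 2.19 and 5.41 in Ponceau Red, and 4.74 and 4.27 in water. Ponceau Red array 2 was the lowest and array 3 the highest, on either side of water. Its tartrazine difference was -1.75 ± 1.06 log2 (adjusted p = 0.342).

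Some members are linked to sleep-like states. The gene nlp-8, expressed in the ALA neuron and acting in stress-induced sleep, read 2.64 and 2.37 log2 in tartrazine, 2.48 and 5.44 in Ponceau Red, and 4.33 and 4.35 in water. Water and Ponceau Red array 3 were high, the other 3 arrays low and close together. The orcokinin-like gene nlp-14, which also promotes sleep, read 4.73 and 5.14 log2 in tartrazine, 5.82 and 8.04 in Ponceau Red, and 7.63 and 7.56 in water. The tartrazine and water pairs lay apart, with a difference of -2.66 ± 0.74 log2 and a 95% interval from -4.60 to -0.72 (limma adjusted p = 0.116). Its family partner nlp-15 had signals of 4.61 and 4.88 log2 in tartrazine, 5.38 and 8.0 in Ponceau Red, and 6.90 and 6.86 in water. The order of the arrays was that of nlp-14, and the tartrazine difference was -2.14 ± 0.86 log2.

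Of the 3 neighbouring RPamide genes, nlp-22 and nlp-23 were below the array median on all 6 arrays, and nlp-2 was above it on some. The gene nlp-22, whose peptide promotes quiescence at the moult, read 1.55 and 1.47 log2 in tartrazine, 1.49 and 1.25 in Ponceau Red, and 1.36 and 1.55 in water, and the groups overlapped. For nlp-23 the signals were 1.84 and 1.49 log2 in tartrazine, 1.60 and 1.84 in Ponceau Red, and 1.48 and 1.45 in water. These arrays differed little, with both colorant pairs above water by a narrow margin. Signals of nlp-2, which has been linked to arousal, were 2.57 and 2.75 log2 in tartrazine, 3.43 and 2.59 in Ponceau Red, and 2.25 and 2.12 in water. Both colorant pairs were above the water pair, Ponceau Red array 2 most of all. The Ponceau Red difference of nlp-2 was 0.82 ± 0.32 log2, with a 95% interval from -0.00 to 1.64 (limma adjusted p = 0.338).

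Among members linked to egg laying and odour responses, nlp-3, which the HSN neurons release to stimulate egg laying, read 3.82 and 4.28 log2 in tartrazine, 4.39 and 6.46 in Ponceau Red, and 4.76 and 4.97 in water. Tartrazine was low and Ponceau Red array 3 stood above every other array. The tartrazine difference was -0.82 ± 0.70 log2, with a 95% interval from -2.65 to 1.02. The gene nlp-7, also linked to egg laying, read 7.79 and 8.06 log2 in tartrazine, 8.39 and 9.18 in Ponceau Red, and 8.81 and 8.66 in water. Its tartrazine pair was below the other 4 arrays, by -0.81 ± 0.31 log2 against water (limma adjusted p = 0.172). The gene nlp-1, expressed in the AWC olfactory neurons and signalling through NPR-11, read 2.35 and 3.73 log2 in tartrazine, 4.37 and 7.30 in Ponceau Red, and 5.81 and 5.78 in water. The tartrazine arrays were more than 1 log2 apart from each other, yet both were below water, and Ponceau Red array 3 was again the highest. Its tartrazine difference of -2.75 ± 1.06 log2 had a 95% interval from -5.51 to -0.00.

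The peptide of nlp-40 is released from the gut and, through the receptor AEX-2 on motor neurons, drives the expulsion step of defecation. It read 9.01 and 9.63 log2 in tartrazine, 9.56 and 9.51 in Ponceau Red, and 9.42 and 9.57 in water. All 6 arrays lay within the span of the tartrazine pair, so the groups overlapped in each comparison. The tartrazine minus water difference was -0.17 ± 0.25 log2, with a 95% interval from -0.82 to 0.48, and it was 0.03 with centred arrays and 0.11 after quantile normalization. The 7 gut markers had list medians relative to water of -1.33 and -0.65 log2 in tartrazine and -0.73 and -0.02 in Ponceau Red. In tartrazine 5 of the 7 were below both water arrays, beside 34.3% of all probe sets, and 2 overlapped. In limma 0 passed and 3 had an unadjusted p under 0.05, beside 28.6%. The gene nlp-36 read 8.77 and 8.71 log2 in tartrazine, 8.68 and 9.11 in Ponceau Red, and 9.36 and 9.44 in water. Both colorant pairs were below water, with differences of -0.66 ± 0.20 log2 in tartrazine (limma adjusted p = 0.129) and -0.51 ± 0.20 log2 in Ponceau Red (adjusted p = 0.351).

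Of the 11 measured members listed for relatives in other animals, 0 passed for tartrazine in limma. At an unadjusted p under 0.05 there were 2, beside 28.6% of all probe sets. Both tartrazine arrays were below both water arrays for 6, beside 34.3%, and above them for 4, near the 33.7% of all probe sets. The gene nlp-38, or mihp-1, encodes peptides like the myoinhibitory peptides of insects. It read 3.74 and 5.30 log2 in tartrazine, 5.31 and 7.58 in Ponceau Red, and 6.24 and 6.40 in water. The tartrazine arrays were over 1 log2 apart, and array 2 of tartrazine and array 2 of Ponceau Red were alike. The gene nlp-47 encodes a peptide related to adipokinetic and gonadotropin-releasing hormones, recognised by GNRR-1. It read 3.04 and 3.78 log2 in tartrazine, 3.48 and 2.79 in Ponceau Red, and 2.80 and 2.66 in water, with the tartrazine pair above water by 0.68 ± 0.36 log2 (limma adjusted p = 0.283).

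The genes nlp-5 and nlp-6, whose peptides resemble allatostatins of insects, lay on opposite sides of water in tartrazine. The gene nlp-6 read 4.68 and 4.20 log2 in tartrazine, 4.48 and 8.04 in Ponceau Red, and 6.23 and 5.94 in water. Tartrazine and Ponceau Red array 2 were low and Ponceau Red array 3 high, with a tartrazine difference of -1.65 ± 1.17 log2. The gene nlp-5 read 3.38 and 4.43 log2 in tartrazine, 4.18 and 1.59 in Ponceau Red, and 1.98 and 1.92 in water. Here tartrazine and Ponceau Red array 2 were the high arrays, and Ponceau Red array 3 was below water. Its tartrazine difference of 1.96 ± 0.91 log2 had a 95% interval from -0.43 to 4.34 (limma adjusted p = 0.237). It was the highest tartrazine difference among the 33 members.

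Members for which no role is given here held the most negative tartrazine difference. The gene nlp-11 (chromosome II, 9689664 to 9691939) read 4.42 and 4.61 log2 in tartrazine, 5.03 and 8.29 in Ponceau Red, and 7.66 and 7.51 in water. Its tartrazine pair was about 3 log2 below water, Ponceau Red array 2 was near tartrazine, and array 3 was above water. The difference was -3.07 ± 1.07 log2, 8.4-fold, with a 95% interval from -5.85 to -0.29 (limma adjusted p = 0.151). The gene nlp-20 read 6.02 and 6.23 log2 in tartrazine, 6.40 and 9.34 in Ponceau Red, and 8.70 and 8.74 in water, nearly the same pattern, with a tartrazine difference of -2.59 ± 0.96 log2.

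The gene nlp-18 read 5.02 and 5.13 log2 in tartrazine, 5.73 and 9.35 in Ponceau Red, and 7.65 and 7.29 in water. Ponceau Red array 3 was above the water pair and Ponceau Red array 2 below it, each by more than 1 log2. The gene nlp-35 read 6.47 and 6.72 log2 in tartrazine, 6.52 and 9.06 in Ponceau Red, and 8.39 and 8.49 in water, and nlp-13 read 5.86 and 5.73 log2 in tartrazine, 6.03 and 9.06 in Ponceau Red, and 7.70 and 7.72 in water. In both, 3 arrays were low and 3 high, with Ponceau Red array 2 in the low set. The neighbour of nlp-13, nlp-9, read 5.59 and 5.51 log2 in tartrazine, 5.43 and 7.69 in Ponceau Red, and 6.96 and 6.82 in water, with the same split and a smaller range.

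The gene nlp-10 read 3.95 and 4.49 log2 in tartrazine, 4.90 and 6.80 in Ponceau Red, and 5.77 and 5.56 in water. The gene nlp-21 read 4.18 and 4.52 log2 in tartrazine, 4.52 and 6.72 in Ponceau Red, and 5.49 and 5.46 in water. In both, Ponceau Red array 2 lay at or just above the tartrazine pair and array 3 about 1 log2 above water. The gene nlp-41 read 3.96 and 3.81 log2 in tartrazine, 3.60 and 7.14 in Ponceau Red, and 5.67 and 5.83 in water, and there Ponceau Red array 2 was the lowest of the 6.

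The gene nlp-46 read 1.71 and 1.49 log2 in tartrazine, 1.51 and 5.04 in Ponceau Red, and 2.29 and 2.53 in water. Ponceau Red array 3 stood 2.63 log2 above the water mean, whereas the other 5 arrays lay near or below the array medians. The gene nlp-39 read 2.50 and 2.22 log2 in tartrazine, 1.70 and 2.08 in Ponceau Red, and 1.81 and 1.53 in water. Its tartrazine pair was above the other 4 arrays, by 0.69 ± 0.23 log2 against water (limma adjusted p = 0.143), and all its signals were within 1 log2 of each other.

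The contrast between the Ponceau Red arrays ran through most of the family. Array 3 was the highest of the 6 arrays for 22 of 33 members, beside 25.5% of all probe sets. For 21 members it was above both water arrays while array 2 was below both, beside 15.1%. Array 3 exceeded array 2 by over 1 log2 for 21 members, beside 11.6%, and array 2 exceeded array 3 by that much for nlp-5 and nlp-16, beside 12.3%. The pair differed by more than 2-fold for 23 members, the tartrazine pair for nlp-1, nlp-5 and nlp-38, and the water pair for none of the 33. Array 2 was within 1 log2 of the tartrazine mean for every member but nlp-1, as it was for 99.0% of all probe sets.

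Summed over the members, the linear signal was 1861 and 2314 in tartrazine, 2451 and 7686 in Ponceau Red, and 4987 and 4931 in water. Tartrazine and Ponceau Red array 2 were at roughly the same level, below water, and Ponceau Red array 3 was above water. The tartrazine minus water difference and the Ponceau Red array 3 minus array 2 difference use no array in common, although all 6 were normalized together by the authors. Across the 33 members they correlated at r = -0.82 (rho = -0.71), and across all probe sets at r = -0.77. Genes measured on the same 6 arrays are not independent replicates, and the value for the members is a description only.

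**Figure D3:**
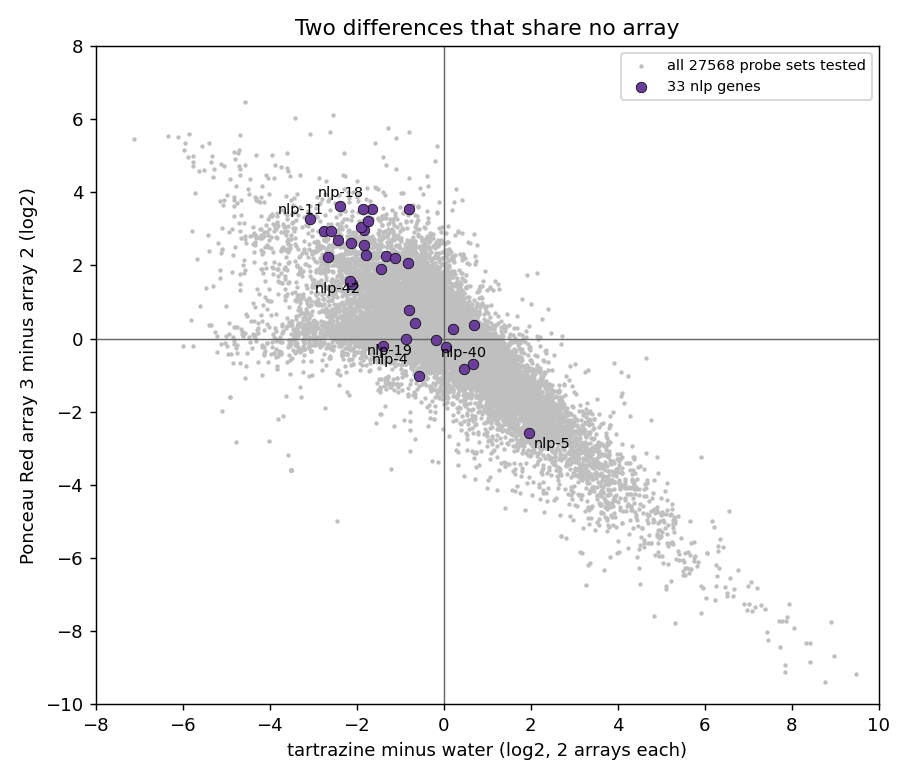
Tartrazine minus water (log2, horizontal axis) against Ponceau Red array 3 minus array 2 (log2, vertical axis) for the 33 nlp genes in purple and all 27568 probe sets tested in grey. Most nlp genes lie in the upper left, nlp-5 in the lower right, and nlp-4 and nlp-19 near 0 on the vertical axis.

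The members were also set beside probe sets of like signal. Of the 18 members with a mean of 5 log2 or more over the 6 arrays, 17 were lower on both tartrazine arrays, with a median of -1.86 log2, and nlp-40 was the exception. Among all probe sets with such a mean the share was 42.3% and the median 0.01. Of the 8 members with a mean under 3 log2, 3 were lower (nlp-4, nlp-19 and nlp-46) and 4 higher (nlp-2, nlp-5, nlp-23 and nlp-39). Among all probe sets in that range 29.3% were lower and 27.4% higher, so 3 of 8 was near the background, and the median was 0.13 log2 for the members and 0.02 for all. Of the 7 members with a mean of 3 to 5 log2, 6 were lower and 1 higher, with a median of -1.75 log2. Among all probe sets in that range 41.2% were lower and 42.7% higher, with a median of 0.02. Below the array median on all 6 arrays were nlp-19, nlp-22 and nlp-23.

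Neuropeptide precursors are cut, trimmed and amidated by a set of enzymes, of which 11 genes were listed. The convertase gene egl-3 read 7.34 and 7.49 log2 in tartrazine, 7.98 and 10.30 in Ponceau Red, and 8.89 and 9.03 in water. Its helper sbt-1, the 7B2-like chaperone, read 6.16 and 5.81 log2 in tartrazine, 6.57 and 9.59 in Ponceau Red, and 8.52 and 8.20 in water. The carboxypeptidase gene egl-21 read 6.71 and 6.82 log2 in tartrazine, 7.34 and 9.65 in Ponceau Red, and 8.72 and 8.63 in water. In all 3 tartrazine was lowest, Ponceau Red array 2 was next and array 3 was the highest. For sbt-1 the tartrazine difference was -2.38 ± 1.00 log2 (limma adjusted p = 0.2). The amidating enzyme gene pghm-1 read 6.69 and 6.89 log2 in tartrazine, 7.33 and 10.11 in Ponceau Red, and 8.57 and 8.50 in water, in the same order.

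Of the 11 processing genes listed, 0 passed for tartrazine or Ponceau Red against water or between the colorants. In limma 1, 0 and 0 had an unadjusted p under 0.05, beside 28.6%, 14.9% and 4.51% of all probe sets. Their median tartrazine difference was -0.84 log2, 8 were below water on both tartrazine arrays, beside 34.3% of all probe sets, and kpc-1, cpd-1 and pamn-1 overlapped water. Ponceau Red array 3 was the highest for 10, beside 25.5%, and aex-5 was highest in water. In the fit on the 4 tartrazine and water arrays, 6 fell and 0 rose, beside 19% and 16.1%.

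Median tartrazine differences were smaller for the genes of dense core vesicles and of peptide receptors, a comparison that was not tested. The receptor genes had list medians in water of 2.17 and 2.30 log2, below the array medians of 2.40 and 2.35. Those of the dense core vesicle genes in water were 5.57 and 5.47 log2. The part of the signal level in these smaller differences was not tested. Of 15 measured dense core vesicle genes, 0 passed for tartrazine, with a median of -0.23 log2. At an unadjusted p under 0.05 in limma there were 7, of which 4 were lower and 3 higher, beside 28.6% of all probe sets. The vesicle membrane gene ida-1 read 4.69 and 4.74 log2 in tartrazine, 5.25 and 8.11 in Ponceau Red, and 6.57 and 6.89 in water, with 3 low and 3 high arrays, whereas the small GTPase gene rab-10 read 8.67 and 8.81 log2 in tartrazine, 8.41 and 8.01 in Ponceau Red, and 7.75 and 7.81 in water, highest in tartrazine. In the 4-array fit 6 of the 15 fell and 2 rose, beside 19% and 16.1% of all probe sets. Of 17 receptor genes, 0 passed for tartrazine, with a median of -0.12 log2 and 0 at an unadjusted p under 0.05, and 4 fell in the 4-array fit, a share near the 19% of all probe sets. The PDF receptor gene pdfr-1 read 3.49 and 3.94 log2 in tartrazine, 3.79 and 6.13 in Ponceau Red, and 4.53 and 4.75 in water, and the cholecystokinin-like receptor gene ckr-2 read 2.69 and 3.20 log2 in tartrazine, 3.20 and 5.51 in Ponceau Red, and 3.76 and 3.70 in water. For both, Ponceau Red array 3 was the highest and tartrazine was below water.

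Of 4 genes for enzymes that break peptides down, the neprilysin gene nep-1 passed for tartrazine, where 4.38% of all probe sets did. It read 4.69 and 4.50 log2 in tartrazine, 4.66 and 5.13 in Ponceau Red, and 6.41 and 5.95 in water. Both colorant pairs were below water, and it fell by 1.59 ± 0.26 log2 in tartrazine (limma adjusted p = 0.0494). The gene acn-1, which encodes a protein like angiotensin-converting enzyme and is needed for moulting, read 4.94 and 5.05 log2 in tartrazine, 5.52 and 8.58 in Ponceau Red, and 8.64 and 8.65 in water. Its Ponceau Red array 3 was level with water, and the other 3 colorant arrays were over 3 log2 lower.

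Markers common to most neurons had list medians relative to water of -0.70 and -0.27 log2 in tartrazine and -0.43 and 0.78 in Ponceau Red. The 16 listed share egl-3, ida-1, ric-19, unc-13 and unc-104 with the lists above. In limma 0 of the 16 passed for tartrazine and 2 had an unadjusted p under 0.05, beside 28.6% of all probe sets. The median tartrazine difference of the 16 was -0.48 log2. Their summed linear signal was 1385 and 1403 in tartrazine, 1458 and 3569 in Ponceau Red, and 1970 and 2083 in water. The synaptic vesicle gene snb-1 read 9.54 and 9.38 log2 in tartrazine, 9.30 and 9.93 in Ponceau Red, and 9.66 and 9.62 in water, a narrow range, and rab-3 read 5.11 and 5.77 log2 in tartrazine, 5.74 and 6.73 in Ponceau Red, and 6.70 and 6.80 in water. Ponceau Red array 3 was the highest array for 12 of the 16, beside 25.5% of all probe sets. The part of these markers in the nlp differences was not tested.

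The 6 epidermal markers had list medians relative to water of -1.89 and -1.47 log2 in tartrazine and -1.32 and -0.20 in Ponceau Red. The collagen gene rol-6 read 3.07 and 3.35 log2 in tartrazine, 3.46 and 3.41 in Ponceau Red, and 6.83 and 6.70 in water. It was the 1 epidermal marker to pass in each colorant comparison, and it fell in both. Of all probe sets 4.38% passed for tartrazine and 2.89% for Ponceau Red. The 4 body wall muscle markers had medians of -0.29 and -0.45 log2 in tartrazine and 0.04 and 0.22 in Ponceau Red.

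**Figure D4:**
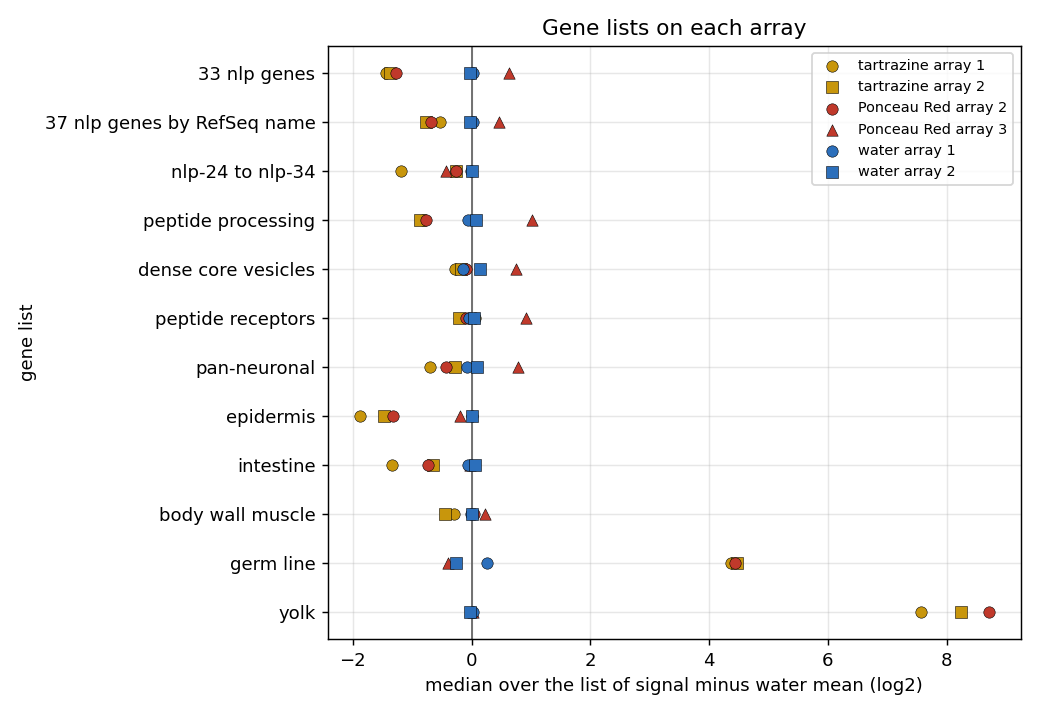
Median over each gene list of the signal minus the water mean (log2, horizontal axis), 1 row per list and 1 point per array. The 33 nlp genes lie at -1.44 and -1.38 in tartrazine and at -1.28 and 0.62 in Ponceau Red, and the germ line and yolk lists lie far to the right on the tartrazine arrays and Ponceau Red array 2.

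For the 37 genes named nlp in RefSeq alone, the median tartrazine difference was -0.60 log2, beside -1.44 for the 33 members. The 2 lists are not at like signal, with list medians in water of 3.29 and 3.30 log2 for the 37 and 5.77 and 5.78 for the members. On 28 of the 37 both tartrazine arrays were below both water arrays, beside 34.3% of all probe sets, and on 3 both were above, beside 33.7%. Ponceau Red array 3 was the highest array for 23 of the 37, beside 25.5%. At an unadjusted p under 0.05 there were 5 for tartrazine, a smaller share than the 28.6% of all probe sets. The genes nlp-49 and nlp-51 passed for tartrazine, where 4.38% of all probe sets did, and for Ponceau Red, where 2.89% did, and fell in both. The gene nlp-49, whose peptide acts through the receptor SEB-3, read 6.35 and 6.36 log2 in tartrazine, 6.13 and 6.04 in Ponceau Red, and 7.77 and 7.81 in water. Water stood above all 4 colorant arrays, and the Ponceau Red arrays agreed within 0.10 log2. It fell by 1.44 ± 0.15 log2 in tartrazine (limma adjusted p = 0.0167) and by 1.71 ± 0.15 log2 in Ponceau Red (adjusted p = 0.0119). The gene nlp-51 read 2.49 and 2.37 log2 in tartrazine, 2.09 and 2.11 in Ponceau Red, and 3.52 and 3.64 in water, again high in water alone. In the 4-array fit 17 of the 37 fell and 1 rose, beside 19% and 16.1%.

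The authors also deposited a table of their own comparison for each colorant, with a ratio of treated over control and an unadjusted p-value. The authors' deposited table for tartrazine lists 4 members, nlp-4, nlp-5, nlp-6 and nlp-46. In the authors' deposited table their ratios are 0.540 (p = 0.00641) for nlp-4, 2.95 (p = 0.0256) for nlp-5, 0.425 (p = 0.0378) for nlp-6 and 0.680 (p = 0.0109) for nlp-46. The authors' deposited table for Ponceau Red lists all 33, of which nlp-4, with a ratio of 0.498, has an unadjusted p under 0.05 (p = 0.00261). All 4 members listed for tartrazine have such a p, while most of the 33 listed for Ponceau Red do not. The numbers of members listed for each colorant are therefore not comparable. The share of all probe sets with such a p in the authors' comparisons is not given here, so these counts have no background.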

How the data were processed

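Total RNA of whole animals was hybridised to Affymetrix arrays, 1 per sample, from 3.5 ng of RNA, per the labels' protocols. The authors deposited log2 signals per probe set over 6 arrays, made with RMA per the submitters' processing notes. Its version and options are not given in the sources used here. The authors also deposited a second log2 table and, for each colorant, a ratio (fold) with an unadjusted p-value, held in the deposited Ponceau Red table beside other entries that are not numbers. RMA signals carry no read depth, and the number of arrays limits the precision.

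Groups of the 6 arrays came from their column names, and those of the second log2 table from the sample titles. RefSeq (WBcel235) named 31 members by accession and 2 by symbol. Of all probe sets, 24021 were named by RefSeq accession, 3302 by RefSeq symbol and 245 by the deposited symbol alone, in all 27568 of 29317. These were fitted with limma 3.58.1 in R 4.3.3 (lmFit, eBayes, 6 arrays, 3 groups, no block, 3 residual and 1.79 prior degrees of freedom), two-sided, with Benjamini-Hochberg adjustment over all 27568 and a threshold of 0.05. Intervals are at 95%. P-values measure the spread between labelled independent trials, 2 per group. The script was tested on simulated data. The members, gene lists and tests were chosen with earlier results of these data known. Named members are those that passed, the extremes of each comparison, the 8 of highest mean, the widest gaps between Ponceau Red arrays and the listed families, and other members are given for completeness. Alternatives covered scaling, deposited table, block, filter, variance prior, features tested and arrays left out.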

Additional observations from a re-analysis of the deposited data

How the results depend on the processing

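The counts of members that passed rested on single arrays. Leaving out each array in turn gave 0 to 27 for tartrazine against water (0% to 35.1% of all probe sets), 0 to 21 for Ponceau Red against water (0% to 26.1%), 0 to 24 between the colorants (0% to 27.7%) and 0 to 26 for any difference among the groups (0% to 37.9%), so the counts moved across the whole array and not for the members alone. For tartrazine against water, a fit with 1 Ponceau Red array is the fit on the 4 other arrays. For tartrazine against water the count was 0 with centred arrays, 0 after quantile normalization and 1 with an intensity trend. Of all probe sets 972, 1086 and 1531 passed there, beside 1208 in the fit without these changes. With a minimum mean of 3 log2 the count was 0 of the 25 members left, and 393 of all probe sets left passed. That minimum removed nlp-4 and nlp-19, with means of 2.88 and 1.81 log2, so neither could pass under it in any comparison. The tartrazine count was 2 in the series matrix table, but for nlp-17 and nlp-42, and 2801 of all probe sets passed there. That count was 27 on the 4 arrays of both groups, beside 35.1% of all probe sets. For Ponceau Red against water the count was 0 with centred arrays, after quantile normalization, with the minimum mean and on 4 arrays. Of all probe sets 581, 648, 250 and 127 passed in these, in that order, beside 796 without these changes. The cause was not tested, apart from the fewer arrays or probe sets that an alternative holds.

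The tartrazine difference of nlp-40 turned to 0.033 with centred arrays and 0.11 after quantile normalization, and without single arrays it ran from -0.48 to 0.14, while that of nlp-22 ran from -0.037 to 0.15. The Ponceau Red median turned to 0.061 with centred arrays and ran from -1.28 to 0.62 without single arrays. Centring moved the median of all probe sets to 0.22 log2 for tartrazine and 0.28 for Ponceau Red, and the series matrix table moved that for tartrazine to -0.24.

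The names of the columns over 6 arrays do not give the labelled trial, so the planned replicate block was not run there. On the series matrix table the labelled trial was tried as a block, an alternative chosen after seeing the data. It gave 0 for tartrazine and 0 for Ponceau Red against water, beside 2 and 1 without it. Of all probe sets 1197 and 263 passed with the block, beside 2801 and 684 without it. The trial differences correlated at 0.16 for tartrazine and water, 0.04 for Ponceau Red and water, and -0.04 for tartrazine and Ponceau Red. With 1 trial difference per group, and the Ponceau Red arrays far apart, these values cannot show whether samples of a trial share more than its number. The alternative of another probe set per symbol gave no value, since each symbol had 1.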

Other observations

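Among nlp-24 to nlp-34, of which nlp-29 and its neighbours are known as antimicrobial peptide genes of the epidermis, tartrazine signals lay on both sides of water. In the 6-array limma fit 0 of the 11 passed for tartrazine, and 5 had an unadjusted p under 0.05, beside 28.6% of all probe sets. On 7 of them both tartrazine arrays were below both water arrays, beside 34.3%, and on 2 both were above, beside 33.7%. The gene nlp-34 read 4.44 and 5.28 log2 in tartrazine, 3.10 and 6.42 in Ponceau Red, and 8.08 and 8.06 in water, and here water stood above all 4 colorant arrays, with Ponceau Red array 3 between the other colorant arrays and water. The gene nlp-28 read 9.47 and 10.24 log2 in tartrazine, 10.06 and 8.04 in Ponceau Red, and 7.68 and 7.80 in water. Its tartrazine arrays and Ponceau Red array 2 were the high ones. Ponceau Red array 3 was the highest array for 3 of these 11 genes, near the 25.5% of all probe sets.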
